A study of Mus musculus with 5 samples.

Results

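Genes of the cyclin, cyclin-dependent kinase (CDK), Cdc and E2F families were examined in a map of ACAA2 on heart chromatin, made by chromatin immunoprecipitation and sequencing (ChIP-seq). Members were all regions of the authors' merged table that list a symbol of the form Ccn plus a letter, Cdk or Cdc plus a number, or E2f1 to E2f8. This gave 43 of 3885 regions, and they carry 35 of the 84 protein-coding mouse genes that fit those names. ACAA2, a thiolase of mitochondria, catalyses the last step of fatty acid beta-oxidation. Donors of all hearts were C57/Bl/6J males, 12 weeks old. The 4 groups were transverse aortic constriction (TAC) on a diet with 60 kcal% fat, sham surgery on 60 kcal% fat, TAC on 10 kcal% fat and sham surgery on 10 kcal% fat. TAC is a surgical narrowing of the aorta that raises the pressure the left ventricle works against. Diets began 4 days before surgery and went on for another week. Each group has 1 library, labelled as a pool of 3 hearts, so the spread between hearts is not known and no comparison was tested. The antibody label and the column names say ACAA2, while the labels' extraction protocol names antibodies to butyrylated and acetylated histone H3 lysine 9. A pooled input is listed among the samples, and its signal was not analysed here, so no background was subtracted.

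Cyclins are the regulatory subunits of CDKs. D cyclins with Cdk4 start the path into S phase by relieving the retinoblastoma protein's hold on E2F transcription factors, and A and B cyclins with Cdk2 and Cdk1 drive DNA replication and mitosis. A second branch of the family does not drive division: cyclins T, K, C and L and their kinases act on RNA polymerase II, the Mediator complex and splicing. Most heart muscle cells of adult mice have left the cell cycle and enlarge under pressure load, while other heart cells can still divide. Several Cdc genes carry the name from yeast division mutants but do other work in mammals, such as Cdc42, a regulator of the actin cytoskeleton, and its effectors.

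The regions lay mostly at gene starts, and the RefSeq promoter sequences below are from members on which the results turn. Each covers 250 bases before to 50 after a start site on the gene's own strand (GRCm38.p6) and overlaps the member's region. Capitals mark matches, on either strand, to the motifs searched. They are TTTCCCGC, TTTGGCGC and TTTCGCGC (E2F-type), TTTGAA (CHR-type, a cell cycle element), CCAAT (NF-Y-type), CACGTG (E-box), TGACGTCA (CRE), CCGGAAG (ETS-type), GGGCGG (SP-type) and an NRF1-type motif. Ccni is shown because its mean signal was the family's highest, Ccng2 and Cdk7 for a call in every library, Cdc14a and Ccnt2 for large differences between libraries, and E2f3 and Cdc25a for their E2F-type matches.
Ccni, chr5:93206446-93206745, minus strand: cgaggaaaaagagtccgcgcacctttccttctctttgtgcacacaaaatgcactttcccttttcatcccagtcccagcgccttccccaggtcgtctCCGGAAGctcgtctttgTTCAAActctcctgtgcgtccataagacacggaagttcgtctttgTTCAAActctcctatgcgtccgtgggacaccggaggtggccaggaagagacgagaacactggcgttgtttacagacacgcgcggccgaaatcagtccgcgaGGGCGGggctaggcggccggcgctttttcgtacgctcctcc
Ccng2, chr5:93267323-93267622, plus strand: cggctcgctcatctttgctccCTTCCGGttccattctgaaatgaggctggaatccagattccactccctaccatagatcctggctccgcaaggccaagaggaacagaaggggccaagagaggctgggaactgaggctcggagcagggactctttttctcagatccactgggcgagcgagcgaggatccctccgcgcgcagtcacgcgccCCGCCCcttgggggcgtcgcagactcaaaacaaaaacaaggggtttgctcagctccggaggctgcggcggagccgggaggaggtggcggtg
Cdk7, chr13:100730893-100731192, minus strand: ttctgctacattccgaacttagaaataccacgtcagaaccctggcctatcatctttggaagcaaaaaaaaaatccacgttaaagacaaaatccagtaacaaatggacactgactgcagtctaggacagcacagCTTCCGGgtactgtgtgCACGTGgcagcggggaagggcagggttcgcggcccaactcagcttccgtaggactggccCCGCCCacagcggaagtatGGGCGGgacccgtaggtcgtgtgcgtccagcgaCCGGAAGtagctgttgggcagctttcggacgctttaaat
Cdc14a, chr3:116424023-116424322, minus strand: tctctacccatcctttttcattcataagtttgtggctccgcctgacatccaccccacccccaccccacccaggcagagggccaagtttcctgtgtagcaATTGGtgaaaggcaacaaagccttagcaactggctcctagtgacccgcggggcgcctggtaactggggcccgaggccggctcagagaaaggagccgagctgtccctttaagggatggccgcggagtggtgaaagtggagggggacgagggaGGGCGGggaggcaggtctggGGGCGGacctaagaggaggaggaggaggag
Ccnt2, chr1:127773914-127774213, plus strand: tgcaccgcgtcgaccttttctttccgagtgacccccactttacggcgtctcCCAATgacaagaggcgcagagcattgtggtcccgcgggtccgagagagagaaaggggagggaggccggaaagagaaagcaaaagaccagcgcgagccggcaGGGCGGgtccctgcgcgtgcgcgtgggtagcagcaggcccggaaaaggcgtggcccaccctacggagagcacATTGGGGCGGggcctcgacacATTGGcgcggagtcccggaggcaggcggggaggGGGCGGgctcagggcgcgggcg
E2f3, chr13:29986014-29986313, minus strand: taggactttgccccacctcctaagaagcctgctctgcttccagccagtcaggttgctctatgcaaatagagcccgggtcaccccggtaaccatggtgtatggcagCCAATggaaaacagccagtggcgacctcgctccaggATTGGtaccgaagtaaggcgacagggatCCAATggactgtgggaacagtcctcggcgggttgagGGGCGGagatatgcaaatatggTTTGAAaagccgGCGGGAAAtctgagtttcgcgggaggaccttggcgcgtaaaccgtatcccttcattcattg
Cdc25a, chr9:109875329-109875628, plus strand: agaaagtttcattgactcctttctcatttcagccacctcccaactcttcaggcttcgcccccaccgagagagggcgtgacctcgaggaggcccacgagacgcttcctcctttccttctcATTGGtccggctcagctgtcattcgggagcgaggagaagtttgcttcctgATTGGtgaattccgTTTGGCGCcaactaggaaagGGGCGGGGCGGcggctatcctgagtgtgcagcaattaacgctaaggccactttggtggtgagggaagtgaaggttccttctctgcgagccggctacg

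Of the 35 genes, 29 have a RefSeq window, and 21 windows overlapped a member region. An E2F-type motif was in 2 of these 21 windows (9.52%), against 1.84% of all 32851 windows. E2f3 held TTTCCCGC, and Cdc25a held TTTGGCGC, as the capitals in their sequences show. A CRE was in 3 of 21 windows (14.3%), those of Cdc5l, Ccnl1 and Cdc42, against 1.79% of all windows. ETS-type motifs were in 28.6% of the 21 windows against 8.86% of all, SP-type in 85.7% against 35.7%, CCAAT in 47.6% against 37.4%, CHR-type in 19.0% against 17.9% and E-boxes in 9.52% against 7.15%. The NRF1-type motif was in 0 of the 21 windows and in 0.971% of all. The 21 windows were richer in G and C, with a median of 61.7% against 52.7%, and held a median of 24 CG dinucleotides against 7. The 81 windows of genes with a family name, with or without a region, were similar in base composition and E2F-type share. Their median GC content was 62.3% with 24 CG dinucleotides, and an E2F-type motif was in 8.64%. CCAAT was in 42.0% of them, CRE in 4.94%, ETS-type motifs in 19.8%, SP-type in 70.4% and E-boxes in 8.64%, all lower than in the 21 windows. CHR-type was in 23.5% and the NRF1-type motif in 3.70% of the 81 windows, both higher than in the 21. The E2F-type share and the base composition are therefore not particular to windows with a region. The part of base composition in these motif shares was not tested. Where motifs overlap in a sequence, their capitals run together.

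The families carried regions unevenly by role. A region was assigned to 35 of 84 genes or 41.7% (Wilson 95% interval 31.7 to 52.3%), against 20.8% of all 21900 protein-coding genes. Cyclins of RNA polymerase II, Mediator and splicing were nearly complete: Ccnt1, Ccnt2, Ccnk, Ccnc, Ccnl1 and Ccnl2 had a region, 6 of 7 genes or 85.7% (48.7 to 97.4%), and each of the 6 had one at its own start. Ccnh had none. Of the 11 cyclins listed for the division cycle, with Ccnf counted among them, Ccnd3 and Ccna2 had a region (18.2%, 5.14 to 47.7%). That share was close to the 20.8% of all protein-coding genes. Ccnd1, Ccnd2, both E cyclins, Ccna1, Ccnf and the B cyclins had none. The kinases showed less of a contrast, with 4 of 7 transcription CDKs (Cdk7, Cdk8, Cdk12 and Cdk19) and 2 of 4 division CDKs (Cdk2 and Cdk4). Cdk9, the kinase partner of the T cyclins, had none, and neither had Cdk1 or Cdk6. Among the E2F genes only E2f3 had a region, 1 of 8 (12.5%, 2.24 to 47.1%), and the interval held the share of all protein-coding genes. The Wilson intervals of the transcription cyclins (from 48.7%) and the division cycle cyclins (to 47.7%) only narrowly missed each other, and those of the kinases overlapped. The narrow gap depends on which genes are listed, such as Ccnf. The role lists were chosen with earlier results of these data known, so this is not a test. No difference between roles was tested.

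**Figure D1:**
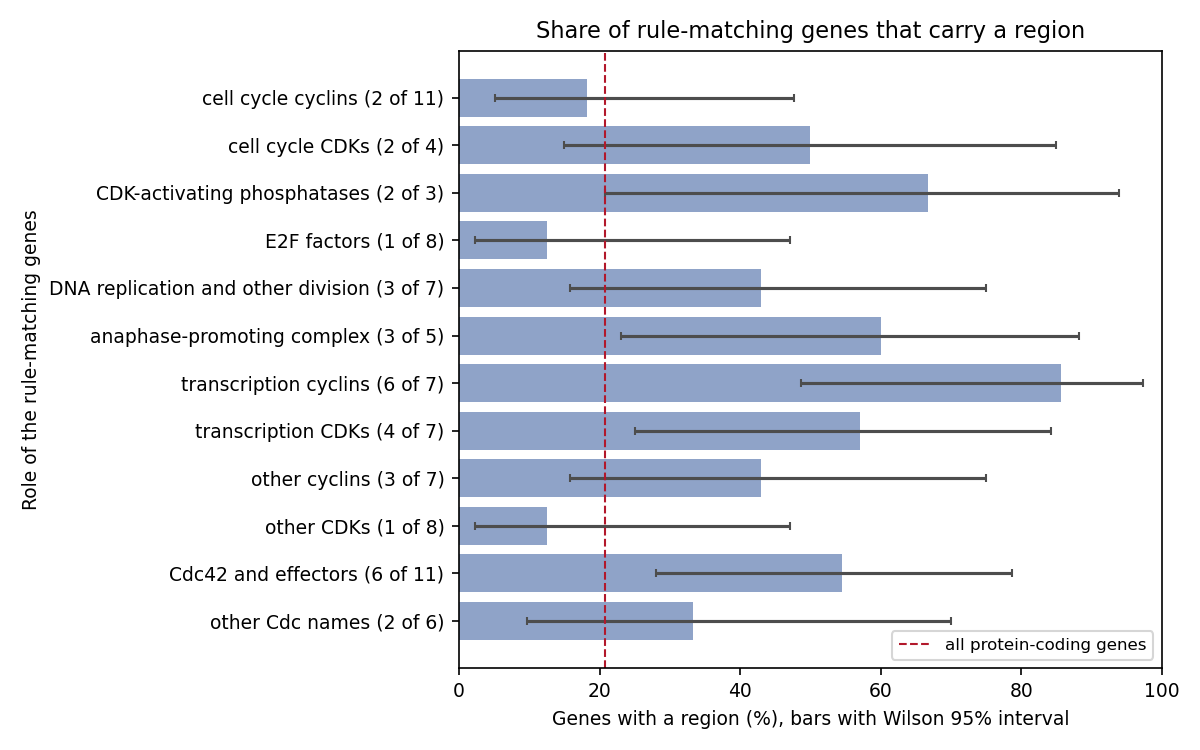
Percentage of protein-coding genes of each role that have at least 1 region, with Wilson 95% intervals and the number of genes in brackets. The dashed line is the share of all protein-coding genes, 20.8%. Transcription cyclins stand at 85.7% and division cycle cyclins at 18.2%.

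Position separated regions that belong to a member from those that lie at a neighbour. Of the 43 regions, 29 lay within 1000 bp of the member's start site, 1 for each of 29 genes. The other 14 lay farther away, and 10 of these were within 1000 bp of another assigned gene's start. Cdk2, Cdk8, Cdc16, Cdc42bpa, Ccny and Ccnd3 had only such farther regions. The region listed for Cdk2 was 349 bp upstream of Rab5b, that of Cdk8 94 bp upstream of Rnf6 and that of Cdc16 62 bp downstream of the start of Upf3a. Even among the 29 regions at a member's start, 8 were also within 1000 bp of another assigned start. Signal at a shared start cannot be told apart between the genes. A promoter was in 40 of 43 regions (93.0%, 81.4 to 97.6%), against 82.6% of all regions, and a CpG island in 35 (81.4%, 67.4 to 90.3%), against 73.7%. With the 1000 bp limit for each gene's own start, 34.5% of the family's genes (25.2 to 45.2%) and 13.6% of all protein-coding genes had a region.

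Signal is given as the average fragment pileup over a region, and its median over the 43 regions was 9.43 for TAC and 9.14 for sham hearts on 60% fat diet, and 11.5 for TAC and 12.0 for sham hearts on 10% fat diet. Over all regions these medians were 9.67, 7.29, 10.7 and 11.8 in the same libraries. The estimated fragments over all regions were 62559 for TAC and 49593 for sham hearts on 60% fat diet, and 68963 for TAC and 75313 for sham hearts on 10% fat diet. A median member region held 16.9 and 15.4 fragments in TAC and sham hearts on 60% fat diet and 20.4 and 20.8 in TAC and sham hearts on 10% fat diet, and counting error on each region's ratio is wide. Member regions were longer than the rest of the table, with a median of 404 bp against 307 bp for all regions, which adds to their fragments. A called interval in 2 or more libraries was present in 24 of 43 member regions (55.8%, 41.1 to 69.6%), against 36.2% of all regions. Per library, 17 member regions were called in TAC and 12 in sham hearts on 60% fat diet, against 28 in TAC and 24 in sham hearts on 10% fat diet. Member regions were called more often than all regions in sham hearts on 60% fat diet (27.9% against 15.4%), and TAC hearts on 10% fat diet showed the same (65.1% against 46.8%). In TAC hearts on 60% fat diet (39.5% against 35.9%) and sham hearts on 10% fat diet (55.8% against 57.3%) the shares were close, and no difference was tested.

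By the mean over the 4 libraries, the highest signals of the family were at the atypical members Ccni and Cdk5. Ccni encodes cyclin I, an atypical cyclin, and its region (chromosome 5, 93206432 to 93206826 in mm10, 134 bp upstream of the start and 111 bp from that of 2010109A12Rik) ranked 12th of 3885 by mean signal. Its signal was 12.7 in TAC and 9.08 in sham hearts on 60% fat diet, and 28.2 in TAC and 23.2 in sham hearts on 10% fat diet. It was the highest member region in both libraries on 10% fat diet, but 12th of the 43 in TAC and 26th in sham hearts on 60% fat diet. In TAC hearts on 60% fat diet Cdc45 was the highest, with 18.8. Cdk5, a kinase activated by p35 rather than a cyclin and known mainly from neurons, followed with 14.9 in TAC and 10.5 in sham hearts on 60% fat diet, and 16.0 in TAC and 23.0 in sham hearts on 10% fat diet. Cdc45, Ccng2, Ccnd3, Ccnt1, Cdk12 and Ccnk completed the first 8, with mean signals over the 4 libraries of 14.2 to 13.0. Called in all 4 libraries were 3 member regions, those of Cdk7 and Ccng2 and 1 of Ccnd3 (6.98%), against 4.12% of all regions.

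**Figure D2:**
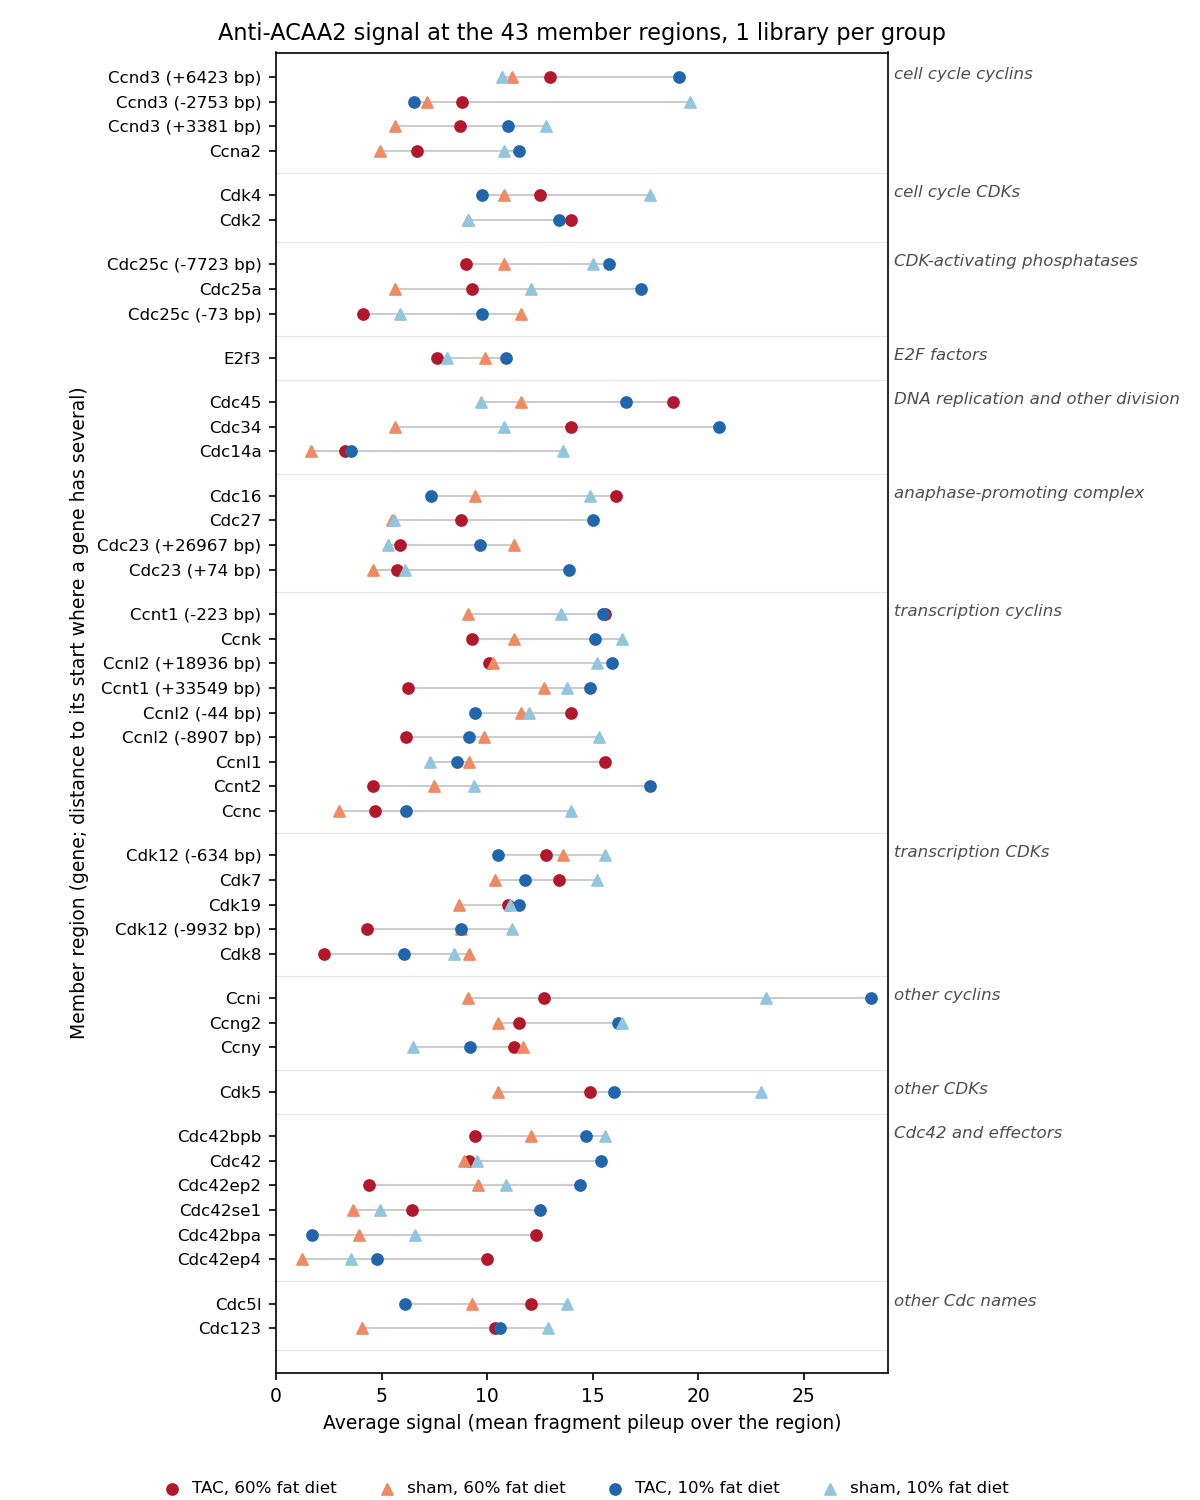
Average signal at each of the 43 member regions, grouped by role. Circles are TAC and triangles sham libraries, in red and orange on 60% fat diet and in dark and light blue on 10% fat diet, and a grey line joins the lowest and highest library. Where values coincide, points lie on top of each other. The region of Ccni reaches 28.2 in TAC hearts on 10% fat diet, and that of Cdc42ep4 is at 1.25 in sham hearts on 60% fat diet.

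For TAC over sham hearts the members spread in both directions on either diet. On 60% fat diet the median log2 ratio of the 43 regions was 0.27 (interval of the median -0.03 to 0.51), against 0.32 over all regions. On 10% fat diet it was 0.07 (-0.26 to 0.38), against -0.14 over all regions. On 60% fat diet 4 member regions reached 2-fold higher signal (9.30%) and 2 reached 2-fold lower signal (4.65%), where 15.5% and 3.11% of all regions were. On 10% fat diet 3 were higher (6.98%) and 5 lower (11.6%), where 7.98% and 11.7% of all regions were. These shares were near those of the whole table, and their Wilson intervals (3.68 to 21.6%, 1.28 to 15.5%, 2.40 to 18.6% and 5.07 to 24.5%) held its values. The whole table was shifted between libraries, and after centring each ratio on the median of all regions the counts were 2 higher and 6 lower on 60% fat diet, and 4 higher and 3 lower on 10% fat diet. Only regions called in some library are listed. Of the 19 member regions called in a single library, 17 had their highest signal in that library (89.5%), against 98.1% of such regions in the whole table. All 3 regions 2-fold higher and 4 of the 5 regions 2-fold lower on 10% fat diet were called in a single library, as were 90.0% and 87.7% of such regions in the whole table. Among the member regions with a call on 60% fat diet, in libraries that the 10% fat diet comparison did not use, 0 were 2-fold higher and 2 were lower on 10% fat diet. Such a call was absent at all 3 higher and 3 of the 5 lower member regions. It was absent at 82.3% of the 2-fold higher and 77.8% of the 2-fold lower regions of the whole table. The part of the calling in these ratios was not tested further.

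**Figure D3:**
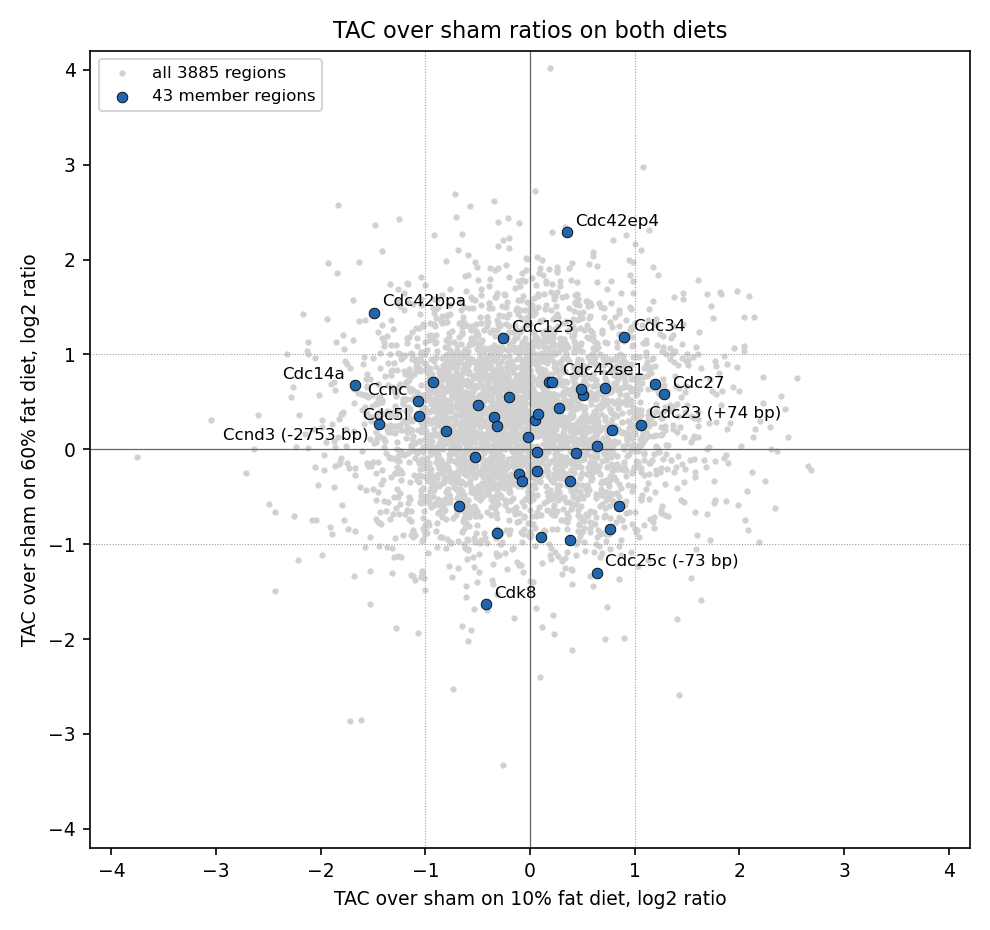
Log2 ratio of TAC over sham signal on 10% fat diet (x axis) and on 60% fat diet (y axis) for all 3885 regions in grey and the 43 member regions in blue. Dotted lines mark 2-fold, and members beyond it are named. Members lie in every quadrant, with 15 in the upper right (34.9%), 13 in the upper left (30.2%), 9 in the lower right (20.9%) and 6 in the lower left (14.0%). Of all regions, 29.9%, 38.3%, 12.8% and 17.5% lie there in the same order.

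Cyclins and kinases of the division cycle differed most at Ccnd3, which encodes cyclin D3, a partner of Cdk4 and Cdk6. It had 3 regions, none within 1000 bp of the start that the authors assigned. The first (chromosome 17, 47501975 to 47502622) was 2753 bp upstream and 11 bp from the start of Taf8, a subunit of the general transcription factor TFIID. Its signal was 8.80 in TAC and 7.15 in sham hearts on 60% fat diet, and 6.55 in TAC and 19.6 in sham hearts on 10% fat diet. The sham library on 10% fat diet stood far above the other 3, and the log2 ratio of TAC over sham was 0.27 on 60% fat diet (counting interval -0.64 to 1.16) and -1.44 on 10% fat diet (-2.39 to -0.79). The region 6423 bp downstream of the start, without a promoter or CpG island, had 13.0 in TAC and 11.2 in sham hearts on 60% fat diet, and 19.1 in TAC and 10.7 in sham hearts on 10% fat diet. There the TAC library on 10% fat diet was the highest, with a log2 ratio over sham of 0.78 (0.15 to 1.52), so the outer regions ran in opposite directions on that diet. The middle region, 3381 bp downstream, had ratios of 0.55 on 60% fat diet and -0.20 on 10% fat diet, and both counting intervals held 0.

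**Figure D4:**
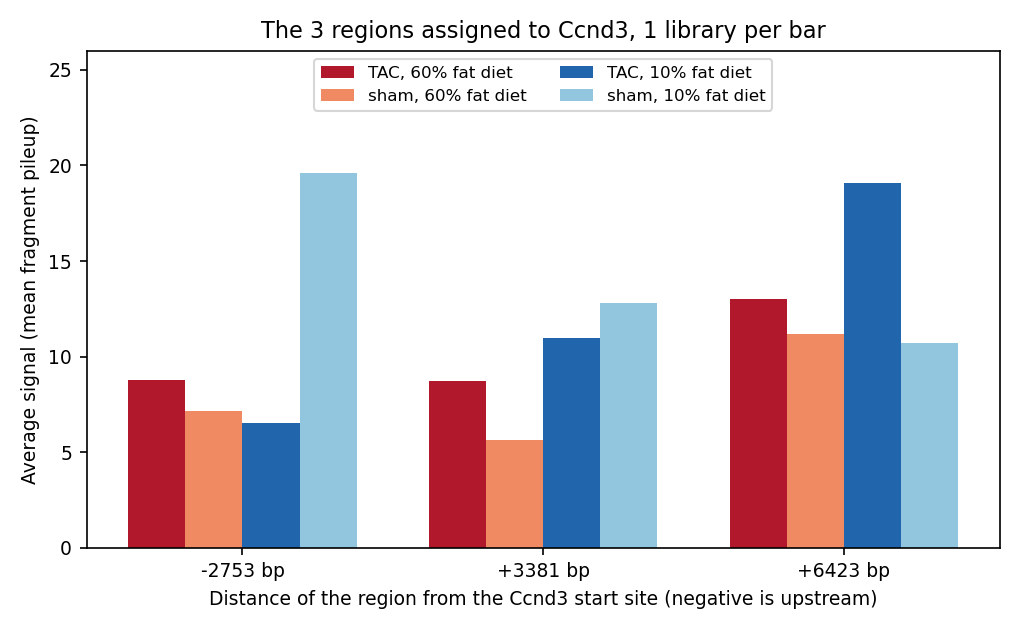
Average signal at the 3 regions assigned to Ccnd3, by distance from its start site, in 1 library per bar. The sham library on 10% fat diet is highest upstream (19.6) and lowest at 6423 bp downstream (10.7).

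Cdk4, the kinase of the D cyclins, had a region 73 bp downstream of its start, also assigned to March9 and Tspan31. Its signal was 12.5 in TAC and 10.8 in sham hearts on 60% fat diet, and 9.77 in TAC and 17.7 in sham hearts on 10% fat diet. The sham library on 10% fat diet was again the highest, but the counting interval of TAC over sham held 0 (log2 ratio -0.80, -1.75 to 0.05). Only that sham library had a call there. Ccna2, cyclin A2 of S phase and mitosis, had 6.67 in TAC and 4.93 in sham hearts on 60% fat diet, and 11.5 in TAC and 10.8 in sham hearts on 10% fat diet. Both 10% fat diet libraries lay above both 60% fat diet libraries. The region of Cdk2, at the start of Rab5b, had 14.0 in TAC and 9.11 in sham hearts on 60% fat diet, and 13.4 in TAC and 9.11 in sham hearts on 10% fat diet. TAC was above sham on both diets, with counting intervals that held 0.

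Cdc25a and Cdc25c encode phosphatases that remove inhibitory phosphates from CDKs, and they had 3 regions. TAC over sham ratios on 10% fat diet ran from 0.07 to 0.64 and those on 60% fat diet from -1.30 to 0.64. None reached 2-fold on 10% fat diet, and every counting interval on that diet held 0. Of all 3885 regions, 1671 had a ratio above 0 on 10% and 2668 on 60% fat diet. Cdc25a had 9.31 in TAC and 5.62 in sham hearts on 60% fat diet, and 17.3 in TAC and 12.1 in sham hearts on 10% fat diet. Its log2 ratio was 0.64 (-0.44 to 2.05) on 60% fat diet and 0.49 (-0.34 to 1.35) on 10% fat diet. The region 73 bp upstream of Cdc25c went apart by diet: it had 4.12 in TAC and 11.6 in sham hearts on 60% fat diet, and 9.75 in TAC and 5.88 in sham hearts on 10% fat diet. The ratios were -1.30 (-3.31 to 0.07) on 60% fat diet and 0.64 (-0.68 to 2.36) on 10% fat diet. The other Cdc25c region, 7723 bp upstream and 350 bp from the start of Fam53c, had 9.0 in TAC and 10.8 in sham hearts on 60% fat diet, and 15.8 in TAC and 15.0 in sham hearts on 10% fat diet. Its ratios were close to 0 on either diet, -0.23 (-0.97 to 0.42) on 60% and 0.07 (-0.47 to 0.62) on 10% fat diet. E2f3, an E2F factor that activates genes of S phase, had 7.62 in TAC and 9.88 in sham hearts on 60% fat diet, and 10.9 in TAC and 8.12 in sham hearts on 10% fat diet, a narrow range.

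DNA replication and other division work was represented by 3 regions, those of Cdc45, Cdc34 and Cdc14a. Their ratios of TAC over sham ran from 0.65 to 1.18 on 60% and from -1.67 to 0.90 on 10% fat diet. Cdc45, a subunit of the replicative helicase, had a region 87 bp upstream of its start, also assigned to Ufd1l (chromosome 16, 18811737 to 18812382). Its signal was 18.8 in TAC and 11.6 in sham hearts on 60% fat diet, and 16.6 in TAC and 9.70 in sham hearts on 10% fat diet. Both TAC libraries were above both sham libraries, with log2 ratios of 0.65 (0.06 to 1.38) on 60% fat diet and 0.72 (0.08 to 1.5) on 10% fat diet. Relative to the all-region medians its ratios were 0.32 and 0.86. Cdc34, a ubiquitin-conjugating enzyme that works with SCF ligases, had 14.0 in TAC and 5.62 in sham hearts on 60% fat diet, and 21.0 in TAC and 10.8 in sham hearts on 10% fat diet. Its ratios were 1.18 (0.28 to 2.60) on 60% fat diet and 0.90 (0.15 to 1.82) on 10% fat diet, or 0.86 and 1.04 relative to all regions. Counting intervals lay above 0 on both diets at these 2 of the 43 member regions (4.65%), and at 17 of all 3885 regions (0.438%). These intervals were not centred. On 60% fat diet the lower limits of Cdc45 and Cdc34, 0.06 and 0.28, lay below the all-region median of 0.32. Member regions were also longer (median 404 bp against 307 bp), and more fragments make counting intervals narrower. Cdc45 and Cdc34 were picked out for these intervals after their values were seen. Cdc14a, a phosphatase related to a yeast enzyme of mitotic exit, had 3.29 in TAC and 1.67 in sham hearts on 60% fat diet, and 3.57 in TAC and 13.6 in sham hearts on 10% fat diet. Its region was called in the last of these libraries alone. Estimated fragments there were 3.20 in TAC and 1.62 in sham hearts on 60% fat diet, and 3.48 in TAC and 13.2 in sham hearts on 10% fat diet, with a ratio on the last diet of -1.67 (-4.57 to -0.25).

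The anaphase-promoting complex is the ubiquitin ligase that ends mitosis, and 3 of its subunit genes had regions. Cdc27 had 8.75 in TAC and 5.50 in sham hearts on 60% fat diet, and 15.0 in TAC and 5.58 in sham hearts on 10% fat diet, in a region also assigned to the muscle myosin light chain gene Myl4. The ratio was 0.58 (-0.67 to 2.03) on 60% fat diet and 1.28 (0.33 to 2.76) on 10% fat diet, the highest of the family on that diet. Cdc23 had 5.75 in TAC and 4.62 in sham hearts on 60% fat diet, and 13.9 in TAC and 6.12 in sham hearts on 10% fat diet at its own start, where the TAC library on 10% fat diet stood alone and the ratio on that diet was 1.06 (-0.25 to 2.89). The region listed for Cdc16 is that at the start of Upf3a, with 16.1 in TAC and 9.42 in sham hearts on 60% fat diet, and 7.33 in TAC and 14.9 in sham hearts on 10% fat diet. TAC was above sham on 60% fat diet (0.71, -0.18 to 1.82) and below it on 10% fat diet (-0.93, -2.13 to 0.06).

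**Figure D5:**
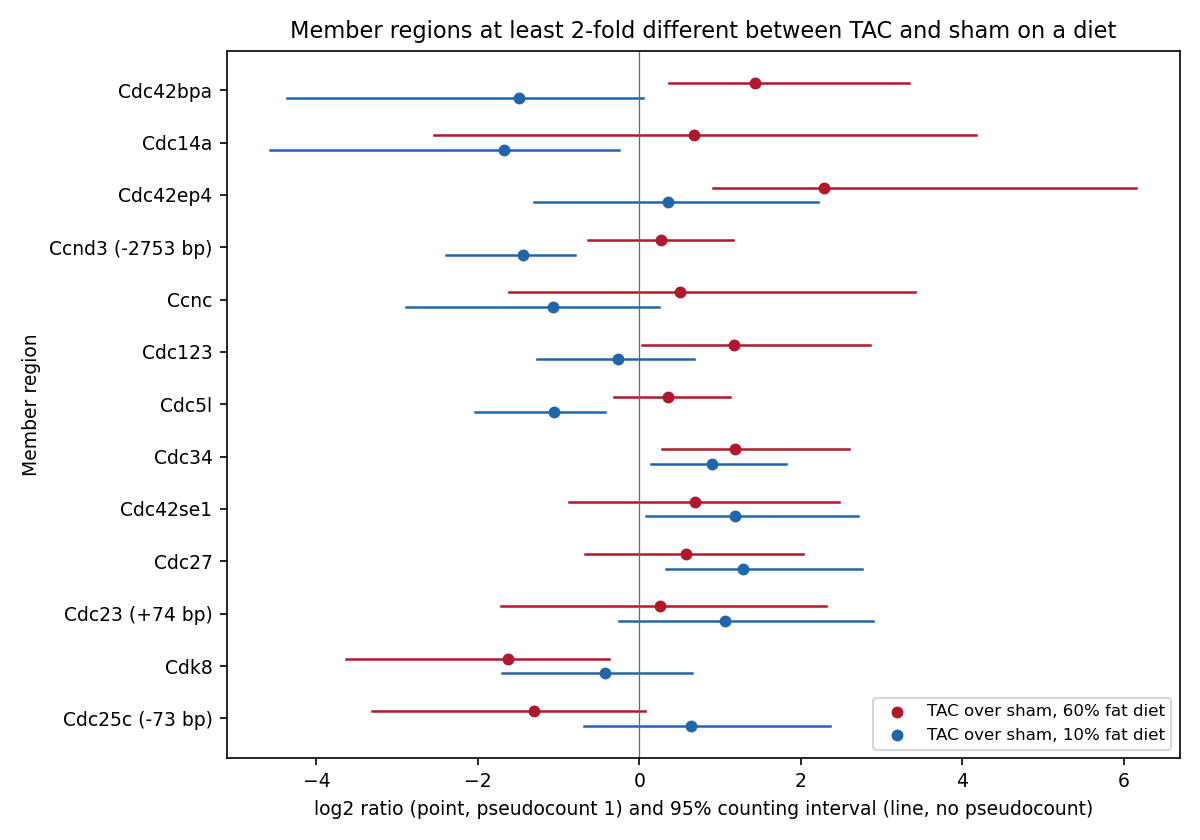
Log2 ratio of TAC over sham signal (points, pseudocount 1) with 95% counting intervals (lines, no pseudocount). Shown are the 13 member regions at least 2-fold different on at least 1 of the diets. Red is 60% and blue 10% fat diet, and regions are ordered by the difference between the diets. Both intervals, which are not centred on the all-region medians, lie above 0 for Cdc34. Those of Cdc14a reach from -4.57 to 4.17.

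Among the transcription cyclins the T cyclins, which with Cdk9 form the elongation factor P-TEFb, differed from each other. The Ccnt1 region 223 bp upstream had 15.6 in TAC and 9.11 in sham hearts on 60% fat diet, and 15.5 in TAC and 13.5 in sham hearts on 10% fat diet. Sham hearts on 60% fat diet were the lowest there. Ccnt2 had 4.60 in TAC and 7.5 in sham hearts on 60% fat diet, and 17.7 in TAC and 9.40 in sham hearts on 10% fat diet (chromosome 1, 127773961 to 127774278). The TAC libraries were the lowest and the highest of the 4, and 60% over 10% fat diet in TAC hearts gave a log2 ratio of -1.74 (-3.29 to -0.59). The Ccnt2 region was called in TAC hearts on 10% fat diet alone. Ccnk, the partner of Cdk12 and Cdk13, had 9.29 in TAC and 11.3 in sham hearts on 60% fat diet, and 15.1 in TAC and 16.4 in sham hearts on 10% fat diet. TAC and sham lay close to each other on either diet, with ratios of -0.26 and -0.11 on 60% and 10% fat diet. Ccnc, the cyclin of Mediator's kinase module, had 4.71 in TAC and 3.00 in sham hearts on 60% fat diet, and 6.14 in TAC and 14.0 in sham hearts on 10% fat diet. The high library was sham on 10% fat diet, as for Cdc14a, with a ratio of -1.07 (-2.89 to 0.25). The regions of Ccnc and Cdc14a were called in that library alone. Ccnl1 and Ccnl2, cyclins of splicing control, had at their own starts the highest signal in TAC hearts on 60% fat diet, 15.6 and 14.0. Both regions were called in that library alone, so they are listed only through it. The other regions listed for Ccnl2 lay at the starts of Mrpl20 and Aurkaip1.

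The transcription kinases differed less, except at Cdk8. Cdk7 activates other CDKs and is part of the transcription factor TFIIH. Its region, 34 bp upstream and called in all libraries, had 13.4 in TAC and 10.4 in sham hearts on 60% fat diet, and 11.8 in TAC and 15.2 in sham hearts on 10% fat diet. Cdk19, a Mediator kinase, had 11 in TAC and 8.69 in sham hearts on 60% fat diet, and 11.5 in TAC and 11.1 in sham hearts on 10% fat diet. Cdk12, which phosphorylates RNA polymerase II, had 12.8 in TAC and 13.6 in sham hearts on 60% fat diet, and 10.5 in TAC and 15.6 in sham hearts on 10% fat diet, 634 bp upstream of its start. In these 3 genes every counting interval of TAC over sham at the own start held 0. The region listed for Cdk8, the other Mediator kinase, is 10124 bp upstream of it at the start of Rnf6, with 2.29 in TAC and 9.14 in sham hearts on 60% fat diet, and 6.07 in TAC and 8.43 in sham hearts on 10% fat diet. Its ratio on 60% fat diet, -1.63 (-3.63 to -0.37), was the lowest of the family on that diet.

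Cdc42 and its effectors had 6 regions, and on 60% fat diet their TAC over sham ratios ran from -0.96 to 2.29 with a median of 0.36, close to 0.32 over all regions. The family's highest ratios on that diet were among them, at Cdc42ep4 and the region listed for Cdc42bpa. Both of these regions were called in TAC hearts on 60% fat diet alone. Cdc42ep4, a Borg-family effector, had 10.0 in TAC and 1.25 in sham hearts on 60% fat diet, and 4.78 in TAC and 3.54 in sham hearts on 10% fat diet. The sham library on 60% fat diet held only 2 estimated fragments there, and the ratio was 2.29 (0.91 to 6.16). The region listed for Cdc42bpa, a kinase that binds Cdc42, lay 214098 bp from that gene's start and 20833 bp from the start of Adck3, with 12.3 in TAC and 3.92 in sham hearts on 60% fat diet, and 1.70 in TAC and 6.58 in sham hearts on 10% fat diet. TAC hearts were the highest on 60% and the lowest on 10% fat diet, with ratios of 1.44 (0.37 to 3.34) and -1.49 (-4.36 to 0.05). Cdc42se1, a small effector, had 6.46 in TAC and 3.64 in sham hearts on 60% fat diet, and 12.5 in TAC and 4.91 in sham hearts on 10% fat diet. The region lay 105 bp upstream of the Cdc42se1 start and 2 bp from the start of Mllt11. Its ratio on 10% fat diet was 1.19 (0.08 to 2.71). Cdc42 itself had 9.15 in TAC and 8.92 in sham hearts on 60% fat diet, and 15.4 in TAC and 9.54 in sham hearts on 10% fat diet, where TAC hearts on 10% fat diet stood above the rest. Its ratio on 60% fat diet was 0.03 (-0.99 to 1.17). Cdc42ep2, another Borg-family effector, had 4.43 in TAC and 9.57 in sham hearts on 60% fat diet, and 14.4 in TAC and 10.9 in sham hearts on 10% fat diet. The TAC libraries were the lowest and the highest there, and the ratio on 60% fat diet was -0.96 (-2.90 to 0.68). Outside the family's division genes, Cdc5l, a splicing factor, had 12.1 in TAC and 9.30 in sham hearts on 60% fat diet, and 6.09 in TAC and 13.8 in sham hearts on 10% fat diet. Its ratio on 10% fat diet was -1.06 (-2.04 to -0.42). Cdc123, an assembly factor of the translation initiator eIF2, had 10.4 in TAC and 4.08 in sham hearts on 60% fat diet, and 10.6 in TAC and 12.9 in sham hearts on 10% fat diet. Its region lay 304 bp upstream of the Cdc123 start and 230 bp from the start of Nudt5. The sham library on 60% fat diet was low there, with a ratio on that diet of 1.17 (0.04 to 2.86). Cdc42bpb, a second Cdc42-binding kinase, and Ccny, a membrane-associated cyclin whose region lay 69325 bp from its start, had TAC over sham ratios between -0.33 and 0.44 on either diet.

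The TAC over sham ratio was also compared between the diets. The log2 ratio on 60% minus that on 10% fat diet was at least 1 unit in 8 member regions (18.6%), where 28.9% of all regions were, and at most minus 1 unit in 6 (14.0%), where 8.70% were. The highest difference was at Cdc42bpa (2.93) and the lowest at Cdc25c (-1.95).

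For 60% over 10% fat diet the members' signal was lower on 60% fat diet, as in the whole table. Relative to the all-region medians, the members' medians were -0.32 in TAC and 0.13 in sham hearts. In TAC hearts the median log2 ratio of the 43 regions was -0.46 (-0.64 to -0.02), against -0.14 over all regions, and in sham hearts it was -0.45 (-0.60 to -0.19), against -0.57. In TAC hearts 2 member regions reached 2-fold higher signal (4.65%) and 7 reached 2-fold lower signal (16.3%), where 7.00% and 11.3% of all regions were. In sham hearts 0 were higher and 8 lower (18.6%), where 2.01% and 24.8% of all regions were. The Wilson intervals of these shares (1.28 to 15.5%, 8.12 to 30.0%, 0 to 8.20% and 9.74 to 32.6%) held the values of the whole table. Centred on the all-region median, the counts were 4 higher and 2 lower in TAC hearts, and 3 higher and 2 lower in sham hearts. Ccni was lower on 60% fat diet in both, with ratios of -1.09 (-1.98 to -0.43) in TAC and -1.26 (-2.29 to -0.49) in sham hearts. Relative to the all-region medians these were -0.95 and -0.69. Ccng2, an atypical cyclin linked to cell cycle arrest, has the longest region of the family (974 bp), with 11.5 in TAC and 10.5 in sham hearts on 60% fat diet, and 16.2 in TAC and 16.4 in sham hearts on 10% fat diet. Its ratios of -0.45 (-1.04 to 0.06) in TAC and -0.60 (-1.19 to -0.07) in sham hearts left -0.31 and -0.03 relative to all regions. In sham hearts Cdc14a (-2.45, -5.89 to -0.56), Ccnc (-1.91, -4.66 to -0.38), Cdc123 (-1.45, -3.12 to -0.37), Ccnd3 upstream (-1.33, -2.21 to -0.67), Cdk5 (-1.07, -1.92 to -0.37) and Ccnd3 at 3381 bp (-1.05, -2.36 to -0.11) were also lower on 60% fat diet. At Cdc42ep4 (-1.01) the interval held 0 (-4.93 to 0.90). The sham comparison and the TAC over sham comparison on 10% fat diet share the sham library on 10% fat diet, which was the high one at Cdc14a, Ccnc and the upstream Ccnd3 region. These regions were called in that library alone. In TAC hearts the regions listed for Cdc42bpa (2.30, 0.98 to 5.13) and Cdc16 (1.04, 0.08 to 2.24) were higher on 60% fat diet. Besides Ccnt2 and Ccni, the lower ones were Cdc42ep2 (-1.51, -3.40 to -0.05), Ccnt1 at 33549 bp (-1.13, -2.49 to -0.15), Cdc23 at its start (-1.14, -2.89 to 0.25), Cdk8 (-1.11, -3.12 to 0.35) and Cdc25c at its start (-1.07, -3.12 to 0.35). For the last 3 the counting interval held 0.

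Other genes of the cell cycle and of transcription control were counted from lists of 127 protein-coding genes outside the family. A region was assigned to 57 of them or 44.9% (Wilson 95% interval 36.5 to 53.6%), close to the family's 41.7%, so a share above the 20.8% of all protein-coding genes is not particular to the family. By the mean over each gene's regions, 3 were 2-fold higher and 0 lower for TAC over sham on 60% fat diet, and 0 higher and 6 lower on 10% fat diet. Of all 5129 genes 13.2% were higher and 2.14% lower on 60% fat diet, and 6.78% higher and 9.14% lower on 10% fat diet. The medians of the 57 genes were 0.29 on 60% and -0.15 on 10% fat diet, close to 0.33 and -0.13 for all genes. Regulators of P-TEFb and elongation had regions at 9 of 15 genes, and the inhibitor gene Hexim1 had 11.9 in TAC and 12.8 in sham hearts on 60% fat diet, and 15.8 in TAC and 17.8 in sham hearts on 10% fat diet. Replication licensing genes had 9 of 19, Mediator 14 of 29, CDK inhibitors 3 of 8, and pocket protein and DREAM genes 4 of 12. The CDK inhibitor gene Cdkn1a, which encodes p21, had 10.5 in TAC and 7.18 in sham hearts on 60% fat diet, and 15.5 in TAC and 14.4 in sham hearts on 10% fat diet at the stronger of its 2 regions, neither of them within 1000 bp of its start. Rb1, the retinoblastoma gene, had 4.00 in TAC and 3.60 in sham hearts on 60% fat diet, and 4.30 in TAC and 13.0 in sham hearts on 10% fat diet, again with sham on 10% fat diet as the high library. Of the remaining lists, kinases and phosphatases of CDKs had regions at 5 of 13 genes, the anaphase-promoting complex and SCF at 7 of 17, and mitogenic input to D cyclins at 6 of 14. Of the markers, heart muscle genes had regions at 3 of 10 (Myh6, Ttn and Pln), 0 of them within 1000 bp of the start, proliferating cells at 2 of 6 (Pcna and Ccna2, but not Mki67, Top2a, Ccnb1 or Cdk1), fibroblasts at 0 of 4, endothelium at 1 of 4 and leukocytes at 1 of 4. A region does not show that a gene is expressed, so these counts do not identify the cells.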

How the data were processed

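ChIP-seq signal was read from 1 merged region table. Per the submitters' processing notes, reads were aligned with BWA and enriched intervals called with SICER on mm10, and neither version is given in the sources used here. Called intervals of 4 libraries were merged into 3885 regions by the authors. They deposited, per the file headers, average and peak signal (fragment pileup), a log2 ratio for each pair and counts of intervals, promoters, CpG islands and genes per region. Depth matching between libraries is not given in the sources used here. Region starts plus lengths equal the ends in all 3885 rows, so starts may count from 0 or from 1, and coordinates are printed as deposited. All columns of per-sample values belong to the 4 libraries.

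Ratios were computed as log2 of average signal plus a pseudocount of 1, and a difference was counted from 2-fold. Fragments were estimated as average signal times length over 224, the constant in the deposited fragment columns. From these rounded fragments came exact Clopper-Pearson 95% counting intervals without a pseudocount. Shares have Wilson 95% intervals, and intervals of medians come from order statistics. All intervals cover counting error or the choice of regions only, not the spread between hearts. Interval code was tested on simulated data. Python 3.11.15, pandas 2.3.3, scipy 1.17.1 and matplotlib 3.10.9 were used. RefSeq (GRCm38.p6) matched 5014 of 5134 gene symbols and gave gene starts for promoter windows.

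Regions named in the text were those at least 2-fold different (up to 6 per direction), the 8 with the highest signal, those called in every library, those apart between diets, and members with a set role in the cycle or in transcription. The members and the gene lists were chosen with earlier results of these data known. Alternatives were another pseudocount, peak signal, centring on all regions, and subsets by gene assignment, promoter, calls, role and distance. The pooled input was not analysed here.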

Additional observations from a re-analysis of the deposited data

Results flagged for a closer look

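In 12 of the 43 member regions (27.9%) TAC over sham ran in opposite directions on the 2 diets and the log2 ratios were over 1 apart. The same held for 1206 regions (31.0%) of the whole table. With 1 library per group the difference between diets was not tested. Values below are the log2 ratio on 60% fat diet minus that on 10% fat diet. Of the 12 regions, 7 were higher on 60% fat diet. Cdc42bpa had 2.93, Cdc14a 2.36, Ccnd3 at its upstream region 1.71, Cdc16 1.65, Ccnc 1.58, Cdc123 1.43 and Cdc5l 1.41. At Cdc14a, Ccnc, Cdc123, Cdc5l and the upstream Ccnd3 region the sham library on 10% fat diet had the highest signal. Cdc14a, Ccnc and the upstream Ccnd3 region were called in that library alone, so they are listed only through it. The other 5 were lower on 60% fat diet. Cdc25c at its start had -1.95, the region of Cdc23 at the start of Brd8 -1.60, Ccnt2 -1.45, Cdc42ep2 -1.34 and the region of Ccnt1 at the start of Kansl2 -1.02. All of these except the Cdc23 region were called in TAC hearts on 10% fat diet alone. Over all 43 member regions the median difference was 0.15 (interval of the median -0.30 to 0.50), against 0.45 over all regions.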

How the results depend on the processing

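No paired analysis was possible because each group has 1 library, and for the same reason no library could be left out. Of 132 values of medians, counts and shares under alternatives, 91 stayed within the limits set for them, 40 moved and 1 reversed. Centring on the median of all regions changed the sign of 2 medians of the 4 comparisons. The median difference between diets changed sign too, from 0.15, with an interval that held 0, to -0.30. The median for 60% over 10% fat diet in sham hearts, -0.45, became 0.13, and that for TAC over sham on 60% fat diet, 0.27 with an interval that held 0, became -0.06. Centred counts were 2 higher and 6 lower for TAC over sham on 60% fat diet, 3 lower on 10% fat diet, 4 higher and 2 lower for 60% over 10% fat diet in TAC hearts, and 3 higher and 2 lower in sham hearts. With 4 higher regions for TAC over sham on 10% fat diet, the direction held by more of the member regions past 2-fold changed with centring in all 4 comparisons. The shift of whole libraries, which centring removes by construction, makes this change.

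For TAC over sham on 60% fat diet, the 4 higher regions became 1 with regions of 1 gene, 1 with calls in 2 or more libraries, 1 without Cdc42 effectors and other Cdc names, and 2 with a call in a library not compared. The 2 lower regions became 0 with regions of 1 gene, and 1 with calls in 2 or more libraries, with genes as units or within 1000 bp of the member's start. On 10% fat diet, the 3 higher regions became 1 with regions of 1 gene, 0 with calls in 2 or more libraries and 0 with a call in a library not compared. The 5 lower regions became 3 with regions of 1 gene, 3 without Cdc42 effectors and other Cdc names, 3 within 1000 bp of the start, 1 with calls in 2 or more libraries and 2 with a call in a library not compared.

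For 60% over 10% fat diet in TAC hearts, the 2 higher regions became 0 with regions of 1 gene or within 1000 bp of the start, and 1 with a promoter, with calls in 2 or more libraries, without Cdc42 effectors and other Cdc names, or with a call in a library not compared. The 7 lower regions became 2 with regions of 1 gene, 2 with calls in 2 or more libraries, 2 with a call in a library not compared and 4 with genes as units. In sham hearts, the 0 higher regions became 1 with a pseudocount of 0.5, and the 8 lower became 3 with regions of 1 gene, 4 with calls in 2 or more libraries and 5 with a call in a library not compared. The share of the family's genes with a region, 41.7%, was 16.7% with regions of 1 gene and 26.2% with calls in 2 or more libraries. These subsets hold fewer regions by construction. The restriction to 1000 bp from the start was chosen after seeing the data. The alternative with a call in a library not compared could not be run for the difference between diets, which uses every library. With a median of 15.4 to 20.8 fragments per member region and library, depth limits single-region ratios.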
